A study of Mus musculus with 5 samples.

Results

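The TNF superfamily ligands described here are 10 genes, Tnfsf11, Tnfsf8, Tnfsf14, Tnfsf10, Fasl, Cd70, Cd40lg, Tnf, Lta and Ltb, in CD8 T cells of a single antigen specificity. They were taken as every probe set whose platform annotation gives exactly 1 gene symbol equal to one of these names, which gave 15 of the 45101 probe sets on the array and 10 of 18193 genes. RNA of 5 cultures was hybridised to 1 one-colour Affymetrix array each. The 3 clone arrays came from separately frozen vials of G9C8, a cytotoxic T cell clone grown in vitro and specific for an insulin B chain peptide. The 2 transgenic arrays came from spleen cells of 2 NOD.G9C8 mice, aged 4 to 8 weeks, which carry the receptor of that clone on the NOD/LtJ background. All 5 cultures spent 3 days with 10 µg/ml of the insulin peptide and 2 further days in IL2 (5 IU/ml), so that the comparison sets a long-term clone against recently activated cells with the same receptor, both rested from stimulation. The vials are of a single clone, and no sort of the spleen cells before RNA extraction is named in the labels.

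TNF superfamily ligands are mostly membrane-anchored proteins that form trimers and can be cut from the cell surface. Each binds 1 or a few receptors of the TNF receptor superfamily, which signal either through TRAF adaptors to NF-kappaB and MAP kinases or through death domains to caspases. CD8 T cells use some of these ligands as effector molecules (TNF, lymphotoxin alpha, Fas ligand) and others in contact with antigen-presenting cells or other T cells (CD40 ligand, CD70, CD30 ligand, LIGHT).

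Signals were used as deposited, on a scale that is the same for all arrays (2% trimmed mean of 500). The T cell receptor complex gene Cd3d and 8 further T cell markers were bright in both groups, with summed signals of 64263 to 72890 on clone and 94110 and 85356 on transgenic arrays, while Cd4 lay between 32.1 and 50.6 on every array. Cd3e read 5323 to 6498 on clone and 5325 and 4879 on transgenic arrays, Cd8a read 8252 to 9188 on clone and 15500 and 12884 on transgenic arrays, and Cd8b1 read 7175 to 7855 on clone and 12207 and 11658 on transgenic arrays. Over all genes tested, 21.7% were called lower in clone and 22.0% higher, at an adjusted p under 0.05 in limma. Of the 9 T cell markers tested, 5 were called lower in clone, Cd8a and Cd8b1 among them, and 4 were not called. Markers of other cells were called lower in clone for 4 of 7 tested monocyte and macrophage genes, led by Lyz2 (3497 and 5549 on the transgenic arrays, 237 to 327 on the clone arrays). The 9 genes of that list with a probe set summed to 1624 to 1987 on clone and to 5561 and 7937 on transgenic arrays. Of 7 tested B cell genes 1 was lower, Cd79b (655 and 594 against 2.7 to 46.0), and 1 higher, Ebf1. The 9 genes of the B cell list with a probe set summed to 1173 to 1451 on clone and 1825 and 1697 on transgenic arrays. Of 5 tested genes used as CD4 T cell markers 1 was higher (Il4) and 1 lower (Cxcr5), with Zbtb7b the brightest. Dendritic cell genes gave 1 higher (Batf3) and 2 lower of 5, plasma cell genes 1 higher (Irf4) and 1 lower of 3, natural killer genes 2 lower of 3 (Gzma and Eomes, both also made by CD8 T cells), red cell and platelet genes 1 lower of 3 (Pf4) and stromal genes 1 lower of 3 (Pecam1). Batf3, Irf4 and Ebf1 were higher on the arrays of a T cell clone, so a call in these lists need not come from other cells. Among the called genes named here, Cd79b, Cxcr5 and Eomes passed the signal filter described below through the transgenic arrays alone. Ebf1 and Il4 passed it through the clone arrays alone. In such cultures, fewer cells of a type and less RNA per cell cannot be told apart.

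Among the ligands, Tnfsf11, Lta and Tnf were higher in clone, and Tnfsf8 was lower, under all 17 processing alternatives. Ltb and Tnfsf10 were slightly lower in clone, with calls that depended on the processing. Fasl was not called, and Tnfsf14, Cd70 and Cd40lg were too dim to enter the test of genes. Differences are given as clone minus transgenic on the log2(signal + 20) scale, which understates differences of dim genes, with calls made where the Benjamini-Hochberg adjusted p of limma was under 0.05. Genes were tested through their brightest probe set if its mean signal over the 5 arrays reached 88.2, the 40th percentile of all probe sets. This filter passed 7 of the 10 ligands and 11 of their 15 probe sets. Of the 7, 3 were higher, 3 lower and 1 not called, and the arrays of the groups did not overlap for 6, as for 64.5% of all genes tested, where 22.0% of all 12446 genes tested were called higher and 21.7% lower, 43.8% in all. Tnfsf11 passed the filter through the clone arrays alone. When all 45037 probe sets other than controls were tested without a filter, 4 of the 15 ligand probe sets were higher and 2 lower, against 11.4% and 12.9% of all probe sets and 24.3% in both directions. The clone and transgenic arrays did not overlap for 11 of the 15 (6 above, 5 below), against 51.3% of all probe sets.

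**Figure D1:**
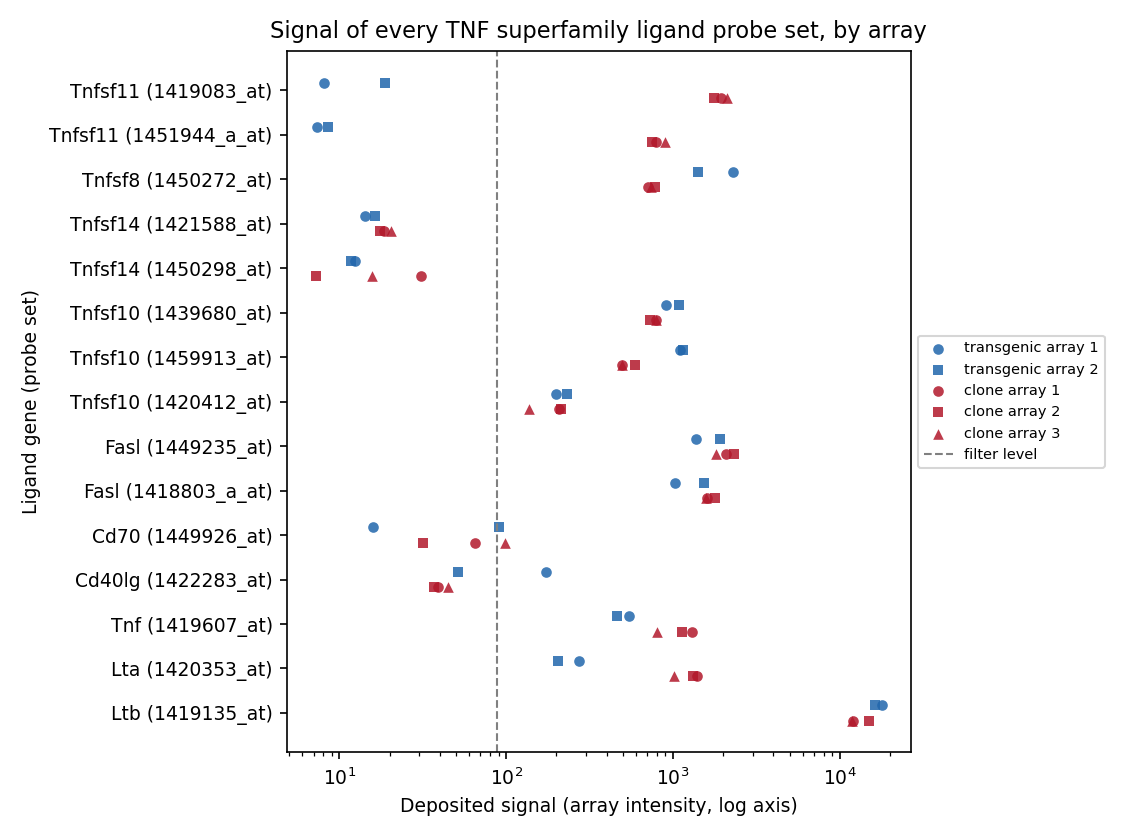
Deposited signal on a log axis for all 15 ligand probe sets, 1 point per array, with transgenic arrays in blue and clone arrays in red and the filter level of 88.2 as a dashed line. Both Tnfsf11 probe sets lie far left on the transgenic arrays (7.3 to 18.8) and right on the clone arrays (744 to 2120), Ltb lies at the bright end in both groups, and all points of Tnfsf14 lie left of the filter level.

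Tnfsf11 encodes RANKL, the ligand of RANK, known for driving osteoclast formation and lymph node development and made by activated T cells. Its brighter probe set, 1419083_at, read 1929.0, 1752.7 and 2120.4 on the clone arrays and 8.1 and 18.8 on the transgenic arrays. Its other probe set, 1451944_a_at, read 786.0, 744.3 and 901.0 on the clone arrays and 7.3 and 8.6 on the transgenic arrays. Every clone array was thus bright and every transgenic array far below the filter level. The difference was 5.88 (SE 0.18, 95% confidence interval 5.46 to 6.30, adjusted p = 2.55e-07). Its size rests on the offset added to dim signals, being 7.17 with a pseudocount of 1 and 4.97 with 50. The dimmer probe set gave 4.89 (SE 0.19, adjusted p = 1.67e-05 in the fit over every probe set). The 3 genes with the most similar profile over the 5 arrays, by Euclidean distance of mean-centred log2 values, were Tmem176b (distance 0.32, difference 5.87), the transcriptional co-regulator gene Cited4 (0.51, difference 5.74) and the RNA-binding protein gene Elavl2 (0.58, difference 6.22). Centring removes the level of a gene. Their mean signals were 15023, 1535 and 1618 on the clone arrays against 245, 9.05 and 1.9 on the transgenic arrays. Cited4 and Elavl2 passed the filter through the clone arrays alone.

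Tnf, Lta and Ltb are consecutive protein-coding genes on chromosome 17 in the RefSeq annotation of GRCm38.p6. Tnf encodes tumour necrosis factor, an inflammatory and cytotoxic cytokine, and Lta encodes lymphotoxin alpha, which shares the TNF receptors when secreted and is held at the membrane by lymphotoxin beta, the product of Ltb. Lta read 1395.0, 1311.8 and 1012.6 on the clone arrays against 271.9 and 204.7 on the transgenic arrays, or 1240 ± 201 (SD, n = 3) against 238 ± 47.5 (n = 2). Tnf read 1306.9, 1130.6 and 802.2 on the clone arrays against 545.1 and 463.7 on the transgenic arrays. In both genes the lowest clone array, the third in each case, still lay above the higher transgenic array. Lta differed by 2.29 (SE 0.18, 1.88 to 2.69, adjusted p = 2.57e-05) and Tnf by 1.04 (SE 0.20, 0.59 to 1.5, adjusted p = 0.00294), which are ratios of mean signals of 5.20 and 2.14.

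Ltb differed from its neighbours in direction and brightness. It read 12044.7, 15057.7 and 11817.1 on the clone arrays against 17944.6 and 16199.7 on the transgenic arrays. The groups thus did not overlap, but the highest clone array, the second, came close to the lower transgenic array. The probe set was brighter than 99.5% of all probe sets, in a range where differences between arrays can be compressed. The difference was -0.40 (SE 0.12, -0.67 to -0.13, adjusted p = 0.0233). It was not called in the fit over every probe set (adjusted p = 0.0708), nor when the first or second transgenic array (0.165 and 0.0555), the first clone array (0.0629) or the third clone array (0.0821) was left out. B cells and other lymphocytes also express Ltb. Of the 7 tested B cell genes given above, Cd79b was lower in clone, Ebf1 was higher and 5 were not called, with a median difference of -0.05. Cd79b passed the filter through the transgenic arrays alone and Ebf1 through the clone arrays alone. The part of other cells in the Ltb signal was not tested.

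The 250 bases before the annotated start of Tnfsf11 and of the 3 neighbouring genes are shown because Tnfsf11, Lta and Tnf were the called higher ligands and Ltb, next to Tnf, lay on the other side of zero. They are RefSeq sequences of GRCm38.p6, written 5′ to 3′ on the strand of the gene, with matches to 4 motifs in capitals on either strand: the TATA box letters TATAA, the NFAT core GGAAA, the AP-1 site TGANTCA and the kappaB consensus.
Tnfsf11, chr14:78308044-78308293, minus strand: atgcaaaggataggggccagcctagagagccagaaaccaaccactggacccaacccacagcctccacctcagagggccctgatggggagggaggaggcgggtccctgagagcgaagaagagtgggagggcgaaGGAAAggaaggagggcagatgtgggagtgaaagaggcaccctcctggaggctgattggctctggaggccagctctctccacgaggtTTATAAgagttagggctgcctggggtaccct
Lta, chr17:35205352-35205601, minus strand: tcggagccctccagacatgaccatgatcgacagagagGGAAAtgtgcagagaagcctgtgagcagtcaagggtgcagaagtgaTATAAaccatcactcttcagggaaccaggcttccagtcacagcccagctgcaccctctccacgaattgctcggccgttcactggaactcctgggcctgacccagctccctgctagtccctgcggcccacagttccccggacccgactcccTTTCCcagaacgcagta
Tnf, chr17:35202008-35202257, minus strand: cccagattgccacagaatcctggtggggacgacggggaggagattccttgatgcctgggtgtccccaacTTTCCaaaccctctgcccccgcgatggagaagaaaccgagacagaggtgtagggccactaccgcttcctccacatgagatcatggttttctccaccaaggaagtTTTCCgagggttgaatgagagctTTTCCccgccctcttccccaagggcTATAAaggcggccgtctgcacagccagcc
Ltb, chr17:35194257-35194506, plus strand: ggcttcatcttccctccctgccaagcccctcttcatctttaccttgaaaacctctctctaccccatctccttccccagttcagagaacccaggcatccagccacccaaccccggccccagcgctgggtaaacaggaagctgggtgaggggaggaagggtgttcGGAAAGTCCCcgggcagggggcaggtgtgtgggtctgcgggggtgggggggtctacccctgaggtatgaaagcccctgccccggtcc

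Upstream sequences were found for 8 of the 10 ligands, all except Cd70 and Cd40lg. TATAA matched in Tnfsf11, Tnf and Lta, 3 of the 8, and in 22.8% of 32851 RefSeq upstream windows of the same length. In Tnf the match spanned bases 29 to 25 before the start. In Tnfsf11 a pair of overlapping matches on opposite strands spanned bases 31 to 26, whereas in Lta the match was further away, at bases 167 to 163. The short NFAT core matched in 8 of 8 ligands and in 55.6% of all windows, with 3 matches in Tnf, 2 in Lta and 1 each in Tnfsf11 and Ltb. The kappaB consensus, found in 3.9% of all windows, matched in Ltb alone of the 8, at bases 87 to 78, where it overlaps the NFAT core of that gene. TGANTCA, found in 6.75% of all windows, matched in Tnfsf14 alone. These are matches of letters in 1 window per gene and do not show binding.

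Of the ligands of death receptors, Fasl was not called and Tnfsf10 gave unequal differences over its probe sets. Fasl encodes Fas ligand, with which cytotoxic T cells kill Fas-bearing targets. Its brighter probe set, 1449235_at, read 2067.9, 2319.8 and 1798.6 on the clone arrays against 1369.0 and 1923.9 on the transgenic arrays, so that the groups overlapped. The first transgenic array lay below the other 4. The difference was 0.33 (-0.04 to 0.70, adjusted p = 0.130), and that of the other probe set was 0.39 (adjusted p = 0.154 over every probe set). Without the second transgenic array the difference was 0.58 and called (adjusted p = 0.0335), and without the first it was 0.09 (adjusted p = 0.721). The interval therefore covers equal signals as well as a clone signal higher by 0.70 on the log2 scale.

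Tnfsf10 encodes TRAIL, a ligand of death receptors that T cells and myeloid cells express, and is measured by 3 probe sets. The brightest, 1439680_at, read 792.7, 727.7 and 789.5 on the clone arrays against 901.9 and 1085.7 on the transgenic arrays, with no overlap. The next, 1459913_at, read 494.8, 595.2 and 492.9 on the clone arrays against 1102.0 and 1144.2 on the transgenic arrays, a wider gap. The dimmest, 1420412_at, read 206.3, 213.8 and 136.5 on the clone arrays against 199.5 and 232.6 on the transgenic arrays, and overlapped. All 3 thus lay lower in clone on average, by unequal amounts. Their differences in the fit over every probe set were -0.36 (adjusted p = 0.0652), -1.07 (SE 0.12, adjusted p = 0.00104) and -0.22 (adjusted p = 0.576). In the test of genes, the brightest probe set was called narrowly (-0.36, -0.64 to -0.07, adjusted p = 0.0459), and this call ended when any of the 5 arrays was left out (adjusted p from 0.0506 to 0.325). Of the 7 tested monocyte and macrophage genes given above, 4 were called lower in clone. The 3 not called included Cd68 (0.50) and Fcgr1 (0.34), which lay higher in clone. The part of myeloid cells in the Tnfsf10 difference was not tested.

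**Figure D2:**
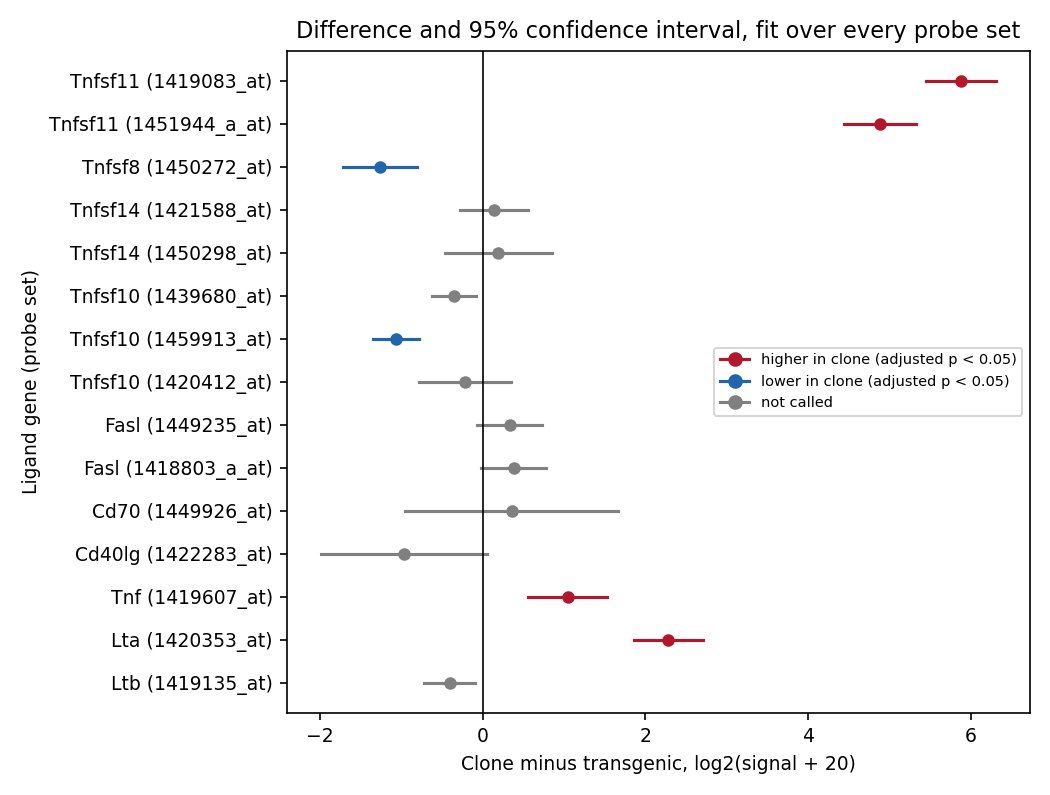
Difference between clone and transgenic arrays on the log2(signal + 20) scale for the 15 ligand probe sets, with 95% confidence intervals from the limma fit over every probe set, red where called higher, blue where called lower and grey otherwise. The Tnfsf11 probe sets stand apart at 5.88 and 4.89, Lta and Tnf follow at 2.29 and 1.04, and the 3 Tnfsf10 probe sets lie at unequal distances below 0; Ltb and the brightest Tnfsf10 probe set, called among genes, are not called here.

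Of the 4 ligands best known for costimulation, only Tnfsf8 passed the filter. Tnfsf8 encodes CD30 ligand, whose receptor CD30 appears on activated lymphocytes. It read 706.3, 777.6 and 735.7 on the clone arrays against 2292.1 and 1416.6 on the transgenic arrays, or 740 ± 35.8 (SD, n = 3) against 1854 ± 619 (n = 2). The clone arrays lay close together, and the transgenic arrays, though wide apart, were both above them. The difference was -1.26 (SE 0.18, -1.69 to -0.84, adjusted p = 0.000796), and it stayed called without the first transgenic array (-0.92, adjusted p = 0.00413) and without the second (-1.61). The 3 genes with the most similar profile were Baz2b (distance 0.14, difference -1.24), the tRNA methyltransferase gene Trmt10a (0.22, difference -1.14) and Nfat5, a transcription factor of the osmotic stress response (0.28, difference -1.27). Their mean signals were 81.9, 399 and 448 on the clone arrays against 232, 913 and 1111 on the transgenic arrays.

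Cd40lg encodes CD40 ligand, the signal by which mainly CD4 T cells activate B cells and dendritic cells. It read 39.2, 37.0 and 44.6 on the clone arrays against 172.5 and 51.6 on the transgenic arrays. The first transgenic array alone lay above the filter level. The Cd40lg difference was -0.96 (-1.98 to 0.06, adjusted p = 0.163 over every probe set), and it was -0.25 without the first transgenic array and -1.68 without the second, where it was called (adjusted p = 0.0315).

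Cd70 encodes the ligand of CD27, made by activated lymphocytes and dendritic cells. It read 65.4, 31.8 and 98.5 on the clone arrays against 15.8 and 90.4 on the transgenic arrays, and the groups overlapped. The difference was 0.36 with a wide interval (-0.95 to 1.67, adjusted p = 0.703). Tnfsf14, which lies beside Cd70 on chromosome 17, encodes LIGHT, a ligand of HVEM and of the lymphotoxin beta receptor. Its 2 probe sets read 7.2 to 31.0 on the clone arrays and 11.7 to 16.4 on the transgenic arrays. The brighter of these differed by 0.14 (-0.28 to 0.56, adjusted p = 0.637). The table holds no detection calls, so signals as dim as those of Tnfsf14 cannot be told from background, and differences of Tnfsf14 and Cd70 were not detectable at this brightness.

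Arrays of a group differed among themselves for several ligands. Of the 7 tested, 6 had a residual SD above the median of all genes tested, 0.16 on the log2 scale. Tnf and Tnfsf8 had the highest residual SD of the 7, the former within clone (highest over lowest signal 1.63) and the latter within the transgenic arrays (1.62). For Tnfsf8 the second transgenic array lay 0.69 below the first on the log2 scale, and 4.44% of tested genes had transgenic arrays further apart. Fasl moved the other way between the same arrays, by 0.48, and Tnf, Lta and Ltb were lower on the second by 0.22, 0.38 and 0.15. The middle 50% of all genes tested lay between -0.13 and 0.16 on this measure. Among clone arrays, the third was the lowest for Fasl (1449235_at), Tnf, Lta and Ltb and the highest for both Tnfsf11 probe sets.

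Of the receptors that bind these ligands, 3 were called lower in clone in limma and 0 higher, and 0 were higher at an unadjusted p under 0.05. These were Cd27, the receptor of CD70 (51.9, 18.2 and 27.0 on the clone arrays against 4543.8 and 4228.2 on the transgenic arrays, difference -6.44, adjusted p = 7.39e-07), Fas, the death receptor bound by Fas ligand (-3.21, adjusted p = 6.94e-06), and Tnfrsf14, encoding HVEM (174.6, 204.6 and 216.2 against 662.7 and 481.2, -1.43, SE 0.19, adjusted p = 0.000468). Fas read 87.0, 61.5 and 73.4 on the clone arrays against 853.8 and 831.0 on the transgenic arrays. Cd27 and Fas were dim on the clone arrays and passed the filter through the transgenic arrays alone. Their differences were -7.17 and -3.51 with a pseudocount of 1, and -5.77 and -2.85 with 50. A further 5 of the 11 receptor genes were tested and not called, and 3 were below the filter. Of the receptors tested, 37.5% were called, all lower. Over all genes tested, 43.8% were called in either direction and 21.7% lower. Of the receptors paired here with the called higher ligands, Tnfrsf11a, Tnfrsf1a and Tnfrsf1b were tested and not called in this fit. Tnfrsf11b was below the filter and was not tested. Tnfrsf11a, encoding RANK, was dim in both groups (174.8, 147.2 and 186.7 on the clone arrays, 112.5 and 148.9 on the transgenic arrays, 0.34, adjusted p = 0.263), and the decoy receptor gene Tnfrsf11b read 40 at most. The TNF receptor genes Tnfrsf1a (-0.06, adjusted p = 0.705) and Tnfrsf1b (-0.32, adjusted p = 0.0987) were not called. With the mean over probe sets, however, Tnfrsf1b was called lower in limma (-0.35, adjusted p = 0.0439). Tnfrsf8, encoding CD30 (0.29, adjusted p = 0.433), and the lymphotoxin beta receptor gene Ltbr (0.24, adjusted p = 0.480) were not called either. Cd40 read 3.2 to 118.6 and the TRAIL receptor gene Tnfrsf10b 11.8 to 60.4 over the 5 arrays, below the filter.

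**Figure D3:**
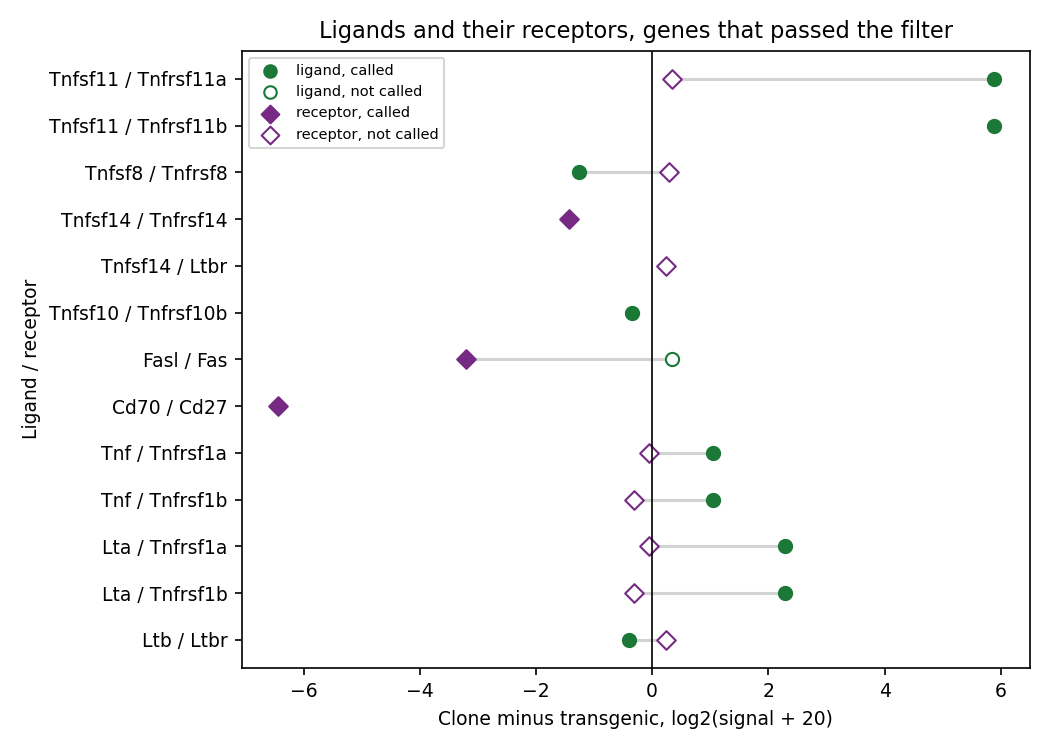
Clone minus transgenic difference on the log2(signal + 20) scale for each ligand (green circle) and receptor (purple diamond) of a known pair, filled where called and joined by a grey line where both passed the filter. Tnfsf11, Lta and Tnf lie right of the receptors plotted beside them, which were not called. Fas lies at -3.21 against 0.33 for Fasl, and Cd27 at -6.44 with its ligand below the filter.

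Of the other members of the family, 1 ligand gene and 8 receptor genes were called. Of 8 further ligand genes, 4 had a probe set, and Tnfsf13b, encoding the B cell survival factor BAFF, was higher in clone (692.6, 514.3 and 531.8 against 279.5 and 177.1, difference 1.29, SE 0.21, adjusted p = 0.00156). Tnfsf4, encoding OX40 ligand (-0.17, adjusted p = 0.591), and Tnfsf9, the 4-1BB ligand gene that lies beside Cd70 (-0.10, adjusted p = 0.739), were not called, nor was Eda. Of 10 tested genes among the other receptors, 7 were lower, 1 higher and 2 not called, where 21.7% of all genes tested were lower and 22.0% higher. Among the lower ones were Tnfrsf25, encoding death receptor 3 (-2.24), Tnfrsf9, encoding 4-1BB (-1.98), Tnfrsf23 (-1.43) and Relt (-1.34), and the higher one was Tnfrsf4, encoding OX40 (2323.5, 3020.9 and 3082.0 against 1376.8 and 1394.9, difference 1.00, adjusted p = 0.000476), named after its values were seen. Tnfrsf25 was dim on the clone arrays and passed the filter through the transgenic arrays alone. Its difference was -2.88 with a pseudocount of 1 and -1.71 with 50, while Tnfrsf9 was -1.21 with the mean over its probe sets. Without the second transgenic array 4 of these receptors were lower in place of 7.

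Downstream of the receptors, of 18 adaptor and signalling genes 9 were lower in clone, 1 higher and 8 not called. This is 55.6% called against 43.8% of all genes tested, of which 21.7% were lower and 22.0% higher. The median difference was -0.29, against -0.01 over all genes tested. Cflar, an inhibitor of caspase-8 activation (-1.65, SE 0.12, adjusted p = 1.47e-05), the adaptor gene Traf5 (-1.63), Tnfaip3, which encodes the NF-kappaB inhibitor A20 (1411.7, 1978.0 and 2254.6 against 5248.7 and 5112.1, -1.48, adjusted p = 0.000254), and Traf3ip3 (-1.09) were lower. With the mean over probe sets Cflar was -0.90 and Traf5 -0.93, and both stayed called. Traf1, an NF-kappaB-induced adaptor named after its values were seen, was higher (5642.0, 6332.8 and 5134.3 against 3353.2 and 3002.1, 0.84, adjusted p = 0.000432).

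Genes listed around the shedding and cleavage of the ligands gave 0 calls in 8 genes in limma, where 43.8% of all genes were called. Of the 8, 0 had an unadjusted p under 0.05. The brightest were Adam10 (0.21, adjusted p = 0.1), a protease that sheds Fas ligand, and Sppl2a, an intramembrane protease that acts on TNF and Fas ligand (-0.03, adjusted p = 0.783). Both depend on the choice of probe set, since with the mean over all probe sets Adam10 was lower (-0.80, adjusted p = 0.000746) and so was Sppl2a (-0.26, adjusted p = 0.0261).

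Genes of proteins that bind cytokine transcripts and regulate their decay gave 7 lower, 2 higher and 2 uncalled members of 11, where 21.7% of all genes tested were lower and 22.0% higher. Their median difference was -0.58, against -0.01 over all genes tested. Zfp36, encoding tristetraprolin, which binds AU-rich elements of the Tnf transcript and promotes its decay, read 3073.2, 2587.6 and 1713.1 on the clone arrays against 6722.6 and 6833.7 on the transgenic arrays (-1.5, SE 0.21, adjusted p = 0.000604). The clone array with the lowest Zfp36 signal, the third, was also the one with the lowest Tnf and Lta signals. The same array was the lowest of the clone arrays for Ltb and for the brighter Fasl probe set. A link between the Zfp36 and Tnf signals was not tested. Zfp36l1, a relative of Zfp36 (-1.48), the RNase family gene Zc3h12d (-1.35) and Tia1, an RNA-binding protein gene (-0.91), were lower too. Tia1 was -1.72 without the first clone array and -1.65 without the third. In these 2 runs another of its 6 probe sets was the brightest and stood for the gene, so the shift reflects the choice of probe set. Hnrnpd (0.61, adjusted p = 0.0184) and Khsrp (0.42, adjusted p = 0.0384), encoding AUF1 and KSRP, which bind AU-rich elements, were higher in this fit (both chosen for their direction), but neither was called with the mean over probe sets (0.13, adjusted p = 0.659, for Hnrnpd and 0.48, adjusted p = 0.0976, for Khsrp). Khsrp was also not called without a filter (adjusted p = 0.0577), without probe sets that may match several transcripts (0.118), with the replicate block (0.0574), with every probe set tested (0.0546) or without the first or second transgenic or the first or second clone array (0.076 to 0.194). Hnrnpd was also not called without the intensity trend (0.0593) or without the first transgenic, the first clone or the third clone array (0.056 to 0.142).

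**Figure D4:**
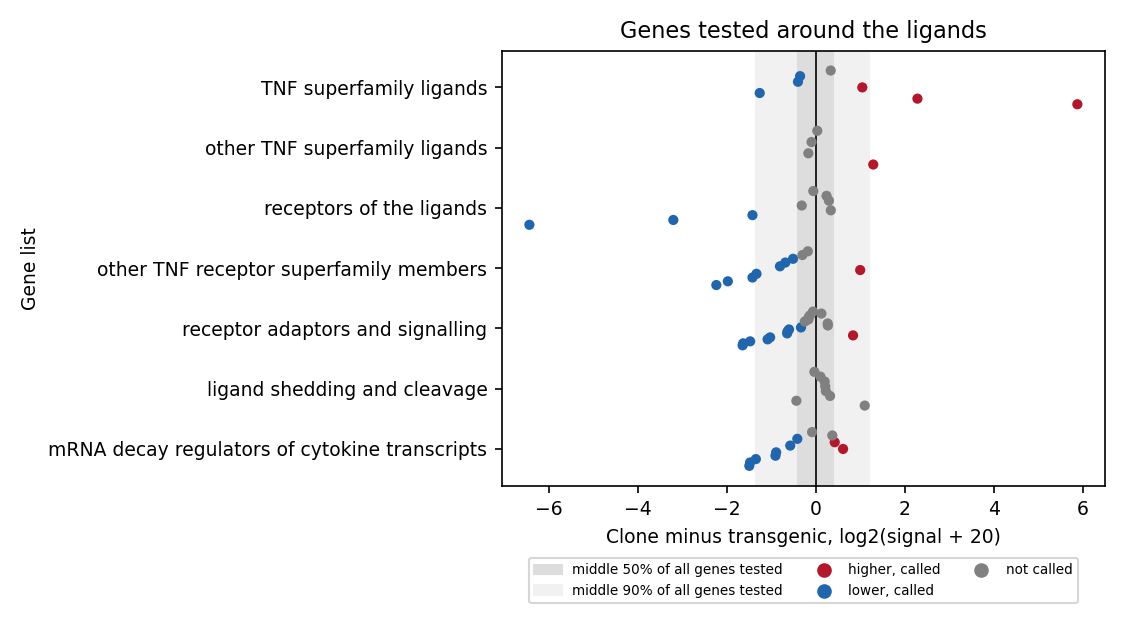
Clone minus transgenic differences on the log2(signal + 20) scale for the tested genes of the ligands and of 6 lists around them, 1 point per gene, red where called higher, blue where called lower and grey otherwise, over bands that hold the middle 50% and 90% of all 12446 genes tested. Called points of the other receptors, adaptors and mRNA decay regulators lie mostly left of 0, with medians of -0.75, -0.29 and -0.58, while no shedding gene is coloured.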

How the data were processed

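The file deposited by the authors holds 1 linear array intensity (signal) for each probe set and array; the submitters' processing notes name GCOS, an Affymetrix program. The labels' protocols give 8 µg of total RNA as input. The scaling was read from the values and kept. Of 45101 probe sets, 64 controls were left out, and 34945 carry 1 symbol in the platform annotation. Groups come from the sample titles. Genes were represented by the brightest probe set and compared in limma 3.58.1 (R 4.3.3, lmFit, eBayes with an intensity trend, two-sided, 3 residual and 8.36 moderated degrees of freedom), with Benjamini-Hochberg adjustment over all 12446 genes, and a further fit covered every probe set. The code was tested on simulated data, where 7.65% of calls were false at an adjusted p under 0.05 in limma. It recovered 44.2% of simulated 1.5-fold, 78.6% of 2-fold and 97.6% of 4-fold differences. The number of arrays, 3 and 2, limits the precision, and the spread behind each p-value is that of vials of a single clone and of 2 mice.

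Members and lists were chosen with earlier results of these data known, so counts over them are descriptions. All 10 ligands were named, and of each list around them up to 4 called genes of largest difference, or up to 2 bright uncalled ones where fewer than 2 were called, and of each marker list its brightest gene. The receptor of a ligand was named whatever its value. List genes were matched through a RefSeq table of GRCm38.p6, and 14 of 154 entries had no probe set with a single symbol and were not analysed here. Alternatives were other scaling, offsets, filters, probe set rules and variance models, a replicate block, and leaving out every array in turn. With an array left out, the filter and the brightest probe set of each gene were set anew.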

Additional observations from a re-analysis of the deposited data

How the results depend on the processing

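Tnfsf11, Lta, Tnf and Tnfsf8 kept their direction and their call under all 17 alternatives, with differences of 4.97 to 7.17, 2.10 to 2.47, 0.90 to 1.24 and -1.61 to -0.92. Ltb was called in 9 of 17 and Tnfsf10 in 7. The number of lower ligands was therefore 1 in place of 3 without a filter, without the intensity trend, with every probe set tested and with the replicate block, and 1 to 2 when single arrays were left out. The number of higher ligands was 3 to 4 and the number of called probe sets 6 to 7 in that case, and the lists around the ligands gave 24 to 31 calls against 31. Where a transgenic array is left out, the lone one is assumed to vary like the clone arrays. The replicate numbers were not taken as pairs in the main fit. Deviations of same-numbered arrays from their group means correlated at -0.03 and -0.08 over genes. With 2 transgenic arrays, whose deviations mirror each other, these values cannot settle whether arrays were paired. With the replicate block Fasl was called (0.43, adjusted p = 0.0355), Ltb was not (-0.34, adjusted p = 0.125), and 2282 genes were higher and 2351 lower over all genes, against 2742 and 2706.

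Some uncalled differences changed sign and stayed uncalled. Tnfsf9 was 0.020 under quantile normalization and 0.041 with the replicate block. With single arrays left out, Tnfsf9 ranged from -0.23 to 0.041 (0.037 without the second transgenic array, 0.041 without the third clone array), Tnfsf4 from -0.47 to 0.13, Ltbr from -0.043 to 0.52, Tnfrsf1a from -0.19 to 0.077 and Cd70 from -0.45 to 1.17; of the last 4, Tnfrsf1a turned without the second transgenic array and the others without the first. Adam10, not called, was lower and called with the mean over probe sets (-0.80). The causes were not tested.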
